A study of Mus musculus with 27 samples.

Results

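The enzymes described here carry alcohol through its oxidation in the liver. They comprise 4 alcohol dehydrogenases (Adh1, Adh4, Adh5 and Adh7), 3 aldehyde dehydrogenases (Aldh2, Aldh1a1 and Aldh1b1), catalase (Cat) and 2 acetyl-CoA synthetases (Acss1 and Acss2). They were taken by gene symbol, with earlier results of these data known, and all 10 were listed in the deposited tables, which hold 17655 genes in all. RNA from whole liver had been sequenced in 27 mice, 3 in each of 9 groups. All mice were Kdm5b fl/fl, so the gene of the histone demethylase KDM5B could be cut by Cre recombinase. AAV8 virus carried a control vector (WT), CMV-driven Cre, which targets the liver without being restricted to 1 cell type (KO), or TBG-driven Cre, which is restricted to hepatocytes (HepKO).

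The 15 WDA mice had Cre or control virus and then, in the order of the labels, 8 weeks of a Western diet and water with alcohol. They were 3 WT females, 3 KO females, 3 HepKO females, 3 WT males and 3 KO males. The 12 Res mice had 16 weeks of the same diet per the labels, then Cre or control virus, and 4 weeks of resolution, which the methods describe as chow and plain water. They were 3 WT females, 3 KO females, 3 WT males and 3 KO males. The labels give no ages. No group was kept without alcohol throughout. Res differs from WDA in alcohol, in dietary fat, in the length of feeding and in the experiment the mice belong to. It also differs in the time of the virus, which the labels place before the diet in WDA and after it in Res. If feeding began at the same age, the Res mice were also older, by the longer feeding and the 4 weeks of resolution. These cannot be told apart. The p-values measure the spread between the mice of these groups.

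In the liver, alcohol dehydrogenases of the cytosol oxidise ethanol to acetaldehyde, and catalase in peroxisomes and the cytochrome P450 CYP2E1 in the endoplasmic reticulum can do the same. Aldehyde dehydrogenases, chiefly ALDH2 in mitochondria, oxidise acetaldehyde to acetate, and acetyl-CoA synthetases join acetate to coenzyme A. The dehydrogenase steps pass their electrons to NAD+, which is why alcohol oxidation is tied to the shuttles that move NADH equivalents into mitochondria.

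Adh1 lies on chromosome 3 (GRCm38.p6, 138277585 to 138290698, protein coding) in a run of alcohol dehydrogenase genes in the order Adh7, Adh1, Adh6a, Adh6b, Adh4 and Adh5. Adh6a and Adh6b had at most 5 and 6 counts in any liver. RefSeq promoter windows of 300 bases, from 250 before to 50 after a transcript start, were given for 9 of the 10 genes, Aldh2 being without one. The 3 shown are those of the genes that the results below turn on: Adh1 for the difference between Res and WDA, Adh4 for the difference between the sexes, and Aldh1b1 for its level in 5 livers that stand apart. All 3 are on the plus strand of GRCm38.p6. Capitals mark matches, on either strand, to the letters of 7 motifs that were searched. These were the E-box CACGTG, the D-box TTATGTAA, the C/EBP core TTGCNNAA, the box written CCAAT, the motif TATAAA, the GC-rich box GGGCGG (here GC box) and the nuclear receptor half-site TGACCT. No marked matches overlap.
Adh1, chr3:138277335-138277634: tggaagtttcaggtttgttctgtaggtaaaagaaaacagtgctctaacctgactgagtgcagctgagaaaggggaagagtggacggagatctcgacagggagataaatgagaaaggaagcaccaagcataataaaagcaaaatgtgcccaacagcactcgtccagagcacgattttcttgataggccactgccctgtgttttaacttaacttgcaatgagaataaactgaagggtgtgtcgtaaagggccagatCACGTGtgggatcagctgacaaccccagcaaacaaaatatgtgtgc
Adh4, chr3:138415247-138415546: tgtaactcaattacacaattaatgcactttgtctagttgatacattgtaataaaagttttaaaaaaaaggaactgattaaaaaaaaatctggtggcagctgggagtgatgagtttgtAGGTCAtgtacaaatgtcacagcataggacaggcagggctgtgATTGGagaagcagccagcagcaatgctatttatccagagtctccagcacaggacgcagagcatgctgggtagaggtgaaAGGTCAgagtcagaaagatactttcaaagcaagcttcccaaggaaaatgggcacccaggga
Aldh1b1, chr4:45798772-45799071: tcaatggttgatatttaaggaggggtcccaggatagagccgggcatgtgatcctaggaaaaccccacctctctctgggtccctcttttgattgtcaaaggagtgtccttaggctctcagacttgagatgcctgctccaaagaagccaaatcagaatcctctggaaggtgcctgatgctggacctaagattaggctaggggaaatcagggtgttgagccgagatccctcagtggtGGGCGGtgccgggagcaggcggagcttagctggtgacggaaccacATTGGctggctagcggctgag
The Adh1 window holds 1 E-box, beginning 5 bases after the start, and of the 11 windows of these enzymes it is the one with this motif, which 7.15% of the 32851 promoter windows of the reference hold. The Adh4 window holds 2 nuclear receptor half-sites (16.3% of all windows hold this motif) and a CCAAT box (37.4%). Both half-sites read AGGTCA on the plus strand shown, the reverse complement of the letters TGACCT that were searched. The Aldh1b1 window holds a GC box (35.7%) and a CCAAT box. These are matches of letters in a window, and binding was not measured.

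Summed counts ranged from 14634602 to 19388251 per liver, and the labelled sex matched 4 Y-linked genes in 12 of 12 males and 15 of 15 females. The livers were checked against marker lists of other liver cells, as sums on the scale of CPM, counts relative to the library total with TMM scaling, which was used for all levels between mice. In 5 livers the sum of 6 cholangiocyte markers was 157 to 535 CPM, against 16.6 to 106 CPM in the other 22 livers. These were WT WDA females mouse 7, KO WDA males mouse 17, WT Res females mouse 13, WT Res males mouse 9 and KO Res males mouse 5. The same 5 livers had the lowest sums of pericentral hepatocyte markers, 426 to 2412 CPM against 2929 to 5207 CPM, and their stellate cell and fibroblast markers summed to 354 to 742 CPM against 173 to 376 CPM. They also had the lowest Cyp2e1, 754 to 6945 CPM against 7395 to 11400 CPM. KO Res males mouse 5 also had 87.1 CPM of Cyp2b13, a female-biased cytochrome P450, against at most 4.18 CPM in the other Res males. The 5 livers were set apart by the cholangiocyte list after the data were seen, and results are given with and without them. In whole liver, fewer cells of a type and less RNA per cell cannot be told apart. Kdm5b itself was lower without overlap in 4 of the 5 comparisons of Cre with control virus, and passed the test in none. The exception was WDA females (14.5 to 24.1 CPM in KO and 21.5 to 31.2 CPM in WT). Its log2 fold change was -0.16 in WDA males, -0.55 in Res females, -0.59 in Res males and -0.98 for HepKO against WT. Of all genes, 8.69%, 12.4%, 2.56% and 8.99% were lower without overlap in these comparisons. In WDA males the order of the means turned on the deposited FPKM, with 3.68 in KO and 3.55 in WT. The FPKM medians there were 3.26 in KO and 3.49 in WT.

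**Figure D1:**
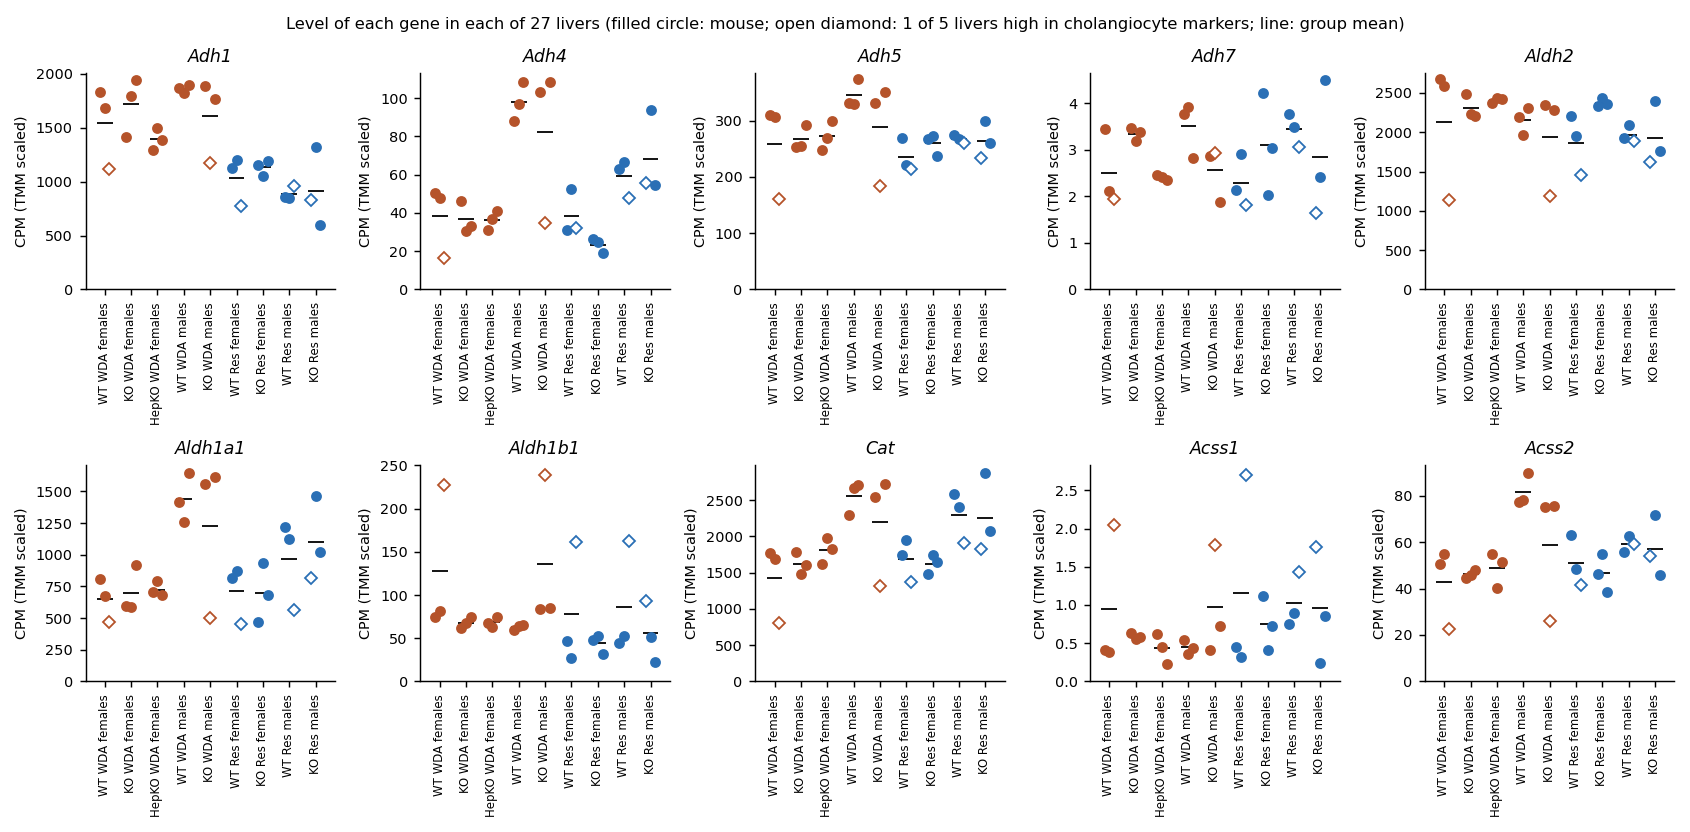
Level of each of the 10 enzymes in each liver by group, in CPM with TMM scaling on axes that start at 0; red is WDA, blue is Res, the line is the mean of 3 mice and open diamonds are the 5 livers high in cholangiocyte markers. Adh1 is lower in Res than in WDA in most livers, Adh4, Aldh1a1 and Cat are higher in males, and Aldh1b1 is highest in the 5 livers.

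Levels were compared between genes on the deposited FPKM, which accounts for gene length. Adh1, the class I alcohol dehydrogenase and the main ethanol-oxidising enzyme of liver cytosol, was first with a median of 1178 FPKM over the 27 livers (517 to 1687). Aldh2, the mitochondrial enzyme that clears most acetaldehyde, followed at 835 FPKM, catalase at 786 FPKM and Aldh1a1, a cytosolic retinal dehydrogenase that also accepts acetaldehyde, at 446 FPKM. The upper members of the order were close: Adh1 exceeded Aldh2 in 23 of 27 livers and Aldh2 exceeded Cat in 13 of 27.

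Adh5, the class III enzyme that oxidises formaldehyde bound to glutathione, had a median of 194 FPKM, below Aldh1a1 and above Adh4 with no overlap of the ranges. Adh4, the class II alcohol dehydrogenase (30.4 FPKM), Aldh1b1, a second mitochondrial aldehyde dehydrogenase (29.7 FPKM), and Acss2, the acetyl-CoA synthetase of cytosol and nucleus (20.4 FPKM), overlapped each other. Adh7, the class IV enzyme known mainly from stomach epithelium, had 1.60 FPKM, and Acss1, the mitochondrial acetyl-CoA synthetase, 0.18 FPKM. Their counts per liver were low, 27 to 79 for Adh7 and 4 to 58 for Acss1. With CPM divided by the merged exon length of the reference in place of FPKM, 7 of the 10 genes kept their rank and Cat moved from the third place to the first.

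**Figure D2:**
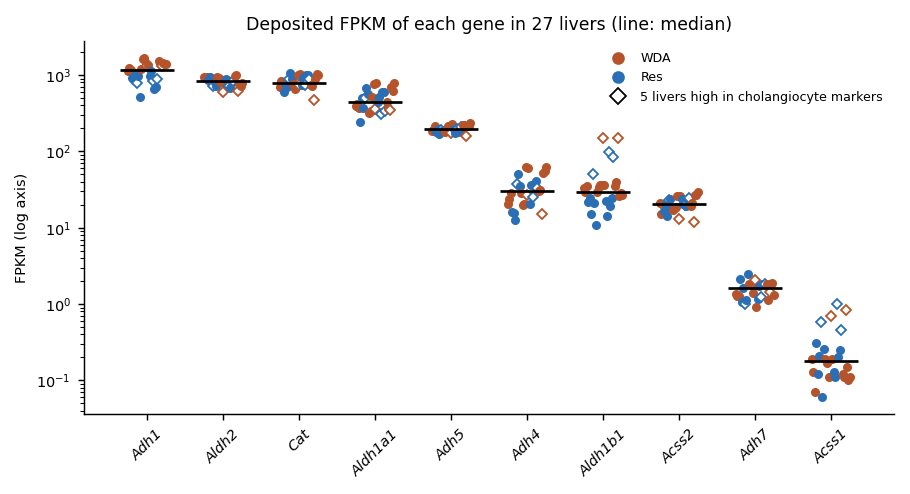
Deposited FPKM of each enzyme in each of the 27 livers on a log axis, with the median as a line, ordered by median; red is WDA, blue is Res and open diamonds are the 5 livers high in cholangiocyte markers. The medians run from 1178 FPKM for Adh1 to 0.18 FPKM for Acss1, and the ranges of Aldh1a1 and Adh5, of Adh5 and Adh4, and of Acss2 and Adh7 do not overlap.

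The first question was whether the enzymes differ between the alcohol diet and 4 weeks after its end. With the stage difference averaged over 4 cohorts (WT and KO, females and males), 1 of the 10 enzymes passed the test at an adjusted p under 0.05, and it was lower in Res; over all genes, 29.8% of 13519 passed, 1900 higher and 2129 lower. The share of enzymes that passed was thus below that of all genes. The median log2 fold change of the 10 was -0.11, against 0.00 over all genes. That gene was Adh1, with a log2 fold change (Res over WDA) of -0.77 (standard error, SE, 0.13, adjusted p = 0.000222, edgeR), which is also the largest absolute difference of the 10.

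Adh1 in WT WDA males was 1870, 1822 and 1892 CPM (mean 1861 ± 35.9 SD, n = 3), and in WT Res males 854, 852 and 962 CPM (889 ± 62.8). In KO WDA females it was 1416, 1796 and 1938 CPM (1717 ± 270), and in KO Res females 1157, 1050 and 1188 CPM (1131 ± 72.3). In both cohorts every Res liver was below every WDA liver, and the difference passed the test in WT males (log2 fold change -1.05, adjusted p = 0.00357) and in KO females (-0.60, adjusted p = 0.0169).

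In the other cohorts the ranges of Adh1 overlapped. WT WDA females had 1828, 1688 and 1114 CPM and WT Res females 1127, 1197 and 775 CPM (log2 fold change -0.58, adjusted p = 0.428). KO WDA males had 1891, 1176 and 1770 CPM and KO Res males 829, 1318 and 596 CPM (-0.81, adjusted p = 0.773). The lowest WDA liver in each of these cohorts, WT females mouse 7 and KO males mouse 17, was 1 of the 5 livers set apart. HepKO WDA females had 1294, 1499 and 1389 CPM, above every Res liver of the WT and KO females. Across the 24 fits that left out 1 mouse in turn, the averaged log2 fold change of Adh1 was -0.85 to -0.70 and passed the test in all 24, and without the 5 livers it was -0.82 (adjusted p = 5.68e-05). The stage difference of Adh1 was not found to differ between the sexes (log2 difference -0.35, 95% confidence interval -0.88 to 0.18, adjusted p = 0.915) or between KO and WT (0.11, 95% confidence interval -0.41 to 0.64).

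**Figure D3:**
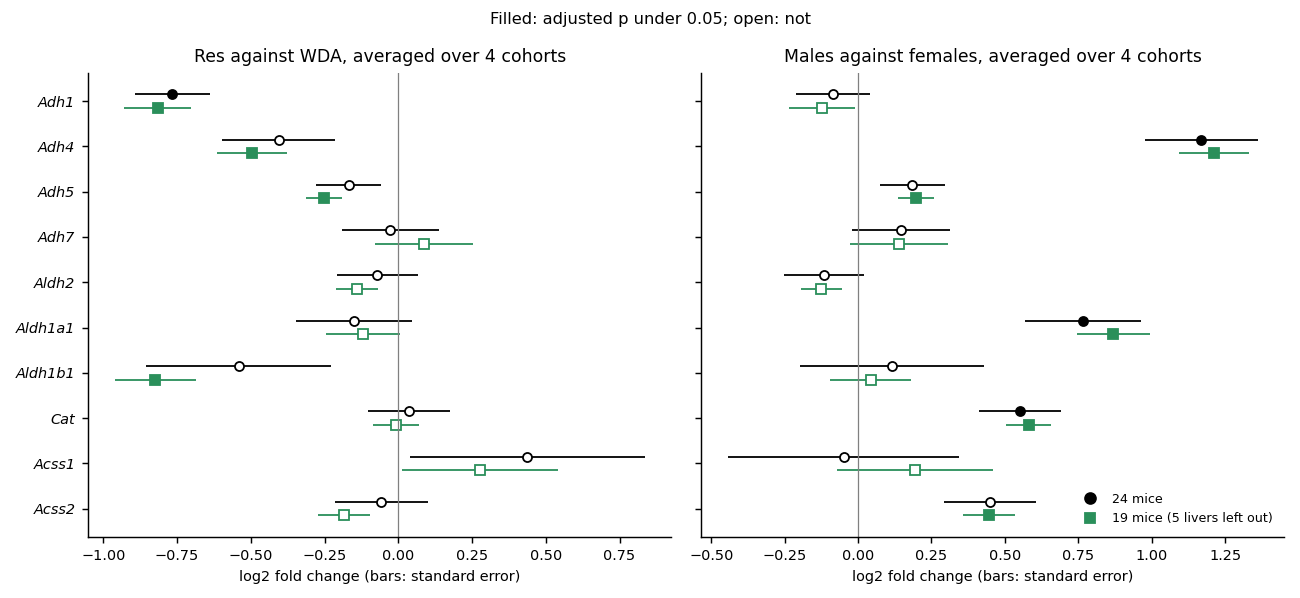
Log2 fold change (bars: standard error) of the 10 enzymes between Res and WDA (left) and between males and females (right), averaged over 4 cohorts, in all 24 WT and KO mice (black circles) and in the 19 left without the 5 livers (green squares); filled symbols have an adjusted p under 0.05. Adh1 lies at -0.77 on the left, and Adh4, Aldh1a1 and Cat lie at 1.17, 0.76 and 0.55 on the right.

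Without the 5 livers, 4 of the 10 enzymes passed in the averaged stage comparison, all lower in Res, against 38.2% of all genes. Besides Adh1 these were Adh4 (log2 fold change -0.50, SE 0.12, adjusted p = 0.00374), Adh5 (-0.25, SE 0.06, adjusted p = 0.00442) and Aldh1b1 (-0.82, SE 0.14, adjusted p = 0.000275). With all 24 mice their values were -0.41 (adjusted p = 0.115), -0.17 (adjusted p = 0.267) and -0.54 (adjusted p = 0.207). Single livers moved these calls too: Adh4 passed without WT WDA females mouse 7 (adjusted p = 0.0293) or KO WDA males mouse 17 (0.0264), and Aldh1b1 without WT Res females mouse 13 (0.0431).

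Within WT males, 4 of the 10 enzymes passed the test, all lower in Res, where 11.0% of 12408 genes did, 619 higher and 742 lower (587 and 227 with library totals in place of TMM scaling). They were 3 alcohol dehydrogenases and the acetyl-CoA synthetase of cytosol and nucleus. The median log2 fold change of the 10 enzymes was -0.24, against 0.02 over all genes. Adh4 was 88.2, 96.7 and 108 CPM in WDA and 63.0, 66.7 and 47.6 CPM in Res (log2 fold change -0.71, SE 0.13, adjusted p = 0.0188). Adh5 was 332, 329 and 374 CPM in WDA and 274, 268 and 260 CPM in Res (-0.35, SE 0.09, adjusted p = 0.0484). Acss2 was 77.0, 78.3 and 89.7 CPM in WDA and 55.9, 62.6 and 59.2 CPM in Res (-0.45, SE 0.09, adjusted p = 0.0257). In each of these 3 genes all Res livers were below all WDA livers. With Adh1 and Aldh1a1, 5 of the 10 enzymes were lower without overlap, against 19.6% of all genes.

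The calls other than Adh1 in WT males depended on single mice. That of Adh5 was also lost with RLE scaling (adjusted p = 0.0501), no filter on low counts (0.0712) and library totals (0.182). It was lost too with FPKM and limma (0.166) and the spread shared by 9 groups (0.350), and held with DESeq2. Acss2 was also lost with library totals (0.128), FPKM and limma (0.135) and the shared spread (0.416), and Adh4 with the shared spread (0.278). Adh4 was lost without WDA mouse 20 (adjusted p = 0.0805) or 21 (0.0994). Adh5 was lost without any 1 of the 6 mice, with adjusted p of 0.114, 0.129 and 0.191 without WDA mice 19, 20 and 21 and of 0.0677, 0.120 and 0.0624 without Res mice 7, 8 and 9. Acss2 was lost without WDA mice 19 (0.0642), 20 (0.0834) or 21 (0.119) and without Res mice 7 (0.0528) or 8 (0.0625). Adh1 passed in all 6 such fits.

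Among the WT males, Aldh1a1 was 1419, 1258 and 1648 CPM in WDA and 1221, 1125 and 564 CPM in Res, also without overlap, but did not pass the test (log2 fold change -0.56, adjusted p = 0.182). Its lowest Res liver was mouse 9, and without that mouse the log2 fold change was -0.28 (adjusted p = 0.186). Acss1 was higher in every Res liver, 0.755, 0.889 and 1.43 CPM against 0.547, 0.363 and 0.439 CPM, on 6 to 27 counts (1.21, adjusted p = 0.0833). Aldh1b1 was 59.8, 64.7 and 65.7 CPM in WDA and 44.4, 52.5 and 163 CPM in Res. The last value was that of mouse 9, and leaving it out turned the log2 fold change from 0.48 (adjusted p = 0.491) to -0.37 (adjusted p = 0.0466).

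Within KO females, 3 of the 10 enzymes passed, all lower in Res, where 20.4% of 12470 genes did, 1273 higher and 1277 lower (934 and 1699 with library totals). The median log2 fold change of the 10 was -0.02 against 0.01 over all genes. Besides Adh1, Adh4 was 46.0, 30.8 and 33.1 CPM in WDA and 26.3, 24.6 and 19.3 CPM in Res (log2 fold change -0.65, SE 0.18, adjusted p = 0.0309). Aldh1b1 was 61.4, 67.5 and 74.7 CPM in WDA and 47.9, 52.5 and 32.0 CPM in Res (-0.62, SE 0.17, adjusted p = 0.0323). For both genes all Res livers were below all WDA livers, so that 3 of the 10 enzymes were lower without overlap, against 20.3% of all genes, and none of these 6 livers was among the 5 set apart. Adh5 and Acss2, which passed in WT males, had log2 fold changes of -0.04 and 0.01 in KO females.

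The calls in KO females rested on single mice as well. Adh1 was lost without Res mouse 3 (adjusted p = 0.0546) or 4 (0.0567). Adh4 was lost without WDA mouse 1 (0.0694) and without Res mice 2 (0.0512), 3 (0.0648) or 4 (0.115). Aldh1b1 was lost without WDA mice 2 (0.0653) or 3 (0.0721) and without Res mice 2 (0.0629) or 4 (0.0830). The log2 fold changes stayed below 0 in all these fits, from -0.73 to -0.52 for Adh1, from -0.76 to -0.45 for Adh4 and from -0.77 to -0.44 for Aldh1b1.

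In WT females 0 of the 9 enzymes tested passed (Acss1 did not pass the filter on low counts there), and in KO males 0 of 10, in comparisons where 0% of all genes passed with edgeR. At an unadjusted p under 0.05 there were 1716 and 819 genes, 0 of them among these enzymes, and DESeq2 called 347 and 79 genes. The largest absolute differences in KO males were those of Aldh1b1 (log2 fold change -1.27, adjusted p = 0.773) and Adh1. Whether the stage difference itself differed between the sexes or between KO and WT was tested across all genes: 0 of the 10 enzymes passed in either test, against 0.118% and 0% of genes.

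Some values moved with the stage beside the enzymes. Kdm5b was lower in Res averaged over 4 cohorts (log2 fold change -0.57, SE 0.10, adjusted p = 0.000421, edgeR). With control virus its mean was 26.0 CPM in WDA and 17.1 CPM in Res in females, and 24.3 and 19.2 CPM in males. Dbp, an output gene of the circadian clock that was looked at after its values were known, was 12.0 to 68.3 CPM in the 6 WDA males and 1.83 to 4.44 CPM in the 6 Res males. In KO females, where Adh1 also fell, Dbp was 4.52 to 5.07 CPM in WDA and 3.46 to 5.17 CPM in Res, and overlapped. In WT females it was 3.15 to 32.5 CPM in WDA and 1.67 to 3.32 CPM in Res, and in HepKO WDA females 13.6 to 22.6 CPM. Lymphocyte markers were higher in Res, with 4 of 4 past the test, and their sum was 1.64 to 4.70 CPM in WDA and 2.32 to 8.90 CPM in Res. Of the hepatocyte markers 2 of 6 were higher in Res, and their sum was 70704 to 107803 CPM in WDA and 85139 to 166815 CPM in Res. Of the periportal hepatocyte markers 3 of 6 and of the endothelial markers 1 of 4 were higher, and 0 of the 6 pericentral, 6 cholangiocyte, 6 macrophage, 6 stellate cell and fibroblast and 4 red cell markers passed. The part of these in the enzyme differences was not tested.

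The second question was whether the sexes differ. Averaged over 4 cohorts, 3 of the 10 enzymes passed the test, all higher in males, where 11.3% of 13519 genes passed, 716 higher and 810 lower in males (352 and 1359 with library totals in place of TMM scaling). They were Adh4 (log2 fold change 1.17, SE 0.19, adjusted p = 0.000437), Aldh1a1 (0.76, SE 0.20, adjusted p = 0.0153) and Cat (0.55, SE 0.14, adjusted p = 0.0136). All 3 passed in each of the 24 fits that left out 1 mouse. The median log2 fold change of the 10 enzymes was 0.17, against 0.00 over all genes.

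Adh4 in the 6 WDA females had a lowest, median and highest level of 16.5, 39.6 and 50.4 CPM, and in the 6 WDA males of 34.7, 99.99 and 108 CPM. In the 6 Res females these were 19.3, 28.6 and 52.5 CPM and in the 6 Res males 47.6, 59.3 and 93.7 CPM. The sexes overlapped at both stages through 1 male liver each, KO WDA males mouse 17 and WT Res males mouse 9, both among the 5 set apart. Without those 5, the females (19.3 to 52.5 CPM, 10 mice) and males (54.8 to 108 CPM, 9 mice) did not overlap across both stages.

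Aldh1a1 showed the same order. It was 456 to 932 CPM in the 12 females (median 678) and 497 to 1648 CPM in the 12 males (median 1240). Without the 5 livers the females reached 932 CPM and the lowest male was at 1020 CPM. Cat, which removes hydrogen peroxide and can use it to oxidise ethanol, was 801 to 1956 CPM in females (median 1670) and 1312 to 2878 CPM in males (median 2473), and without the 5 livers 1476 to 1956 CPM against 2067 to 2878 CPM. For both genes the 2 sexes then did not overlap. With Adh4, 3 of the 10 enzymes were thus higher in males without overlap, against 0.968% of 13534 genes.

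Without the 5 livers, 5 of the 10 enzymes passed as higher in males, against 20.1% of all genes. The added ones were Acss2 (log2 fold change 0.45, SE 0.09, adjusted p = 0.00164) and Adh5 (0.20, SE 0.06, adjusted p = 0.0306). With all 24 mice Acss2 had the same difference with a wider error (0.45, SE 0.16, adjusted p = 0.0735). It passed with DESeq2 (0.45, adjusted p = 0.0415) and when KO WDA males mouse 17 alone was left out (0.53, adjusted p = 0.00558). Adh5 with all mice had 0.18 (adjusted p = 0.33). Adh1 did not pass between the sexes (-0.09, 95% confidence interval -0.35 to 0.18), nor did Aldh2 (-0.12, -0.40 to 0.17).

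The third question was whether cutting Kdm5b moves these enzymes, and 0 of the enzymes passed in any comparison of KO or HepKO. Averaged over the sexes, the log2 fold changes of KO against WT were -0.18 to 0.21 in WDA, where 0% of genes passed, and -0.73 to 0.16 in Res, where 0.0740% did, and their medians were -0.02 and 0.01. The intervals were narrower for Adh1 (95% confidence interval -0.40 to 0.35 in WDA and -0.29 to 0.46 in Res) than for Aldh1b1 (-0.83 to 1.02 in WDA and -1.67 to 0.20 in Res). Differences within these intervals are compatible with the values of these mice, so an absence of change was not shown. In the 4 comparisons within 1 sex and stage 0% of genes passed with edgeR, and DESeq2 called 0 of the enzymes and between 2 and 592 genes.

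HepKO and WT WDA females showed 0 of 9 enzymes past the test, with 0% of genes, and HepKO against KO showed 0 of 10, with 0.0162%. At an unadjusted p under 0.05 there were 2 enzymes between HepKO and KO, Adh1 (log2 fold change -0.30, adjusted p = 0.859) and Adh7 (-0.47, adjusted p = 0.825). Adh7 was 2.47, 2.43 and 2.35 CPM in HepKO and 3.47, 3.18 and 3.38 CPM in KO, lower without overlap (5.25% of genes were), on fewer than 80 counts a liver. Aldh1b1 was lower without overlap in HepKO (63.2 to 74.1 CPM) than in WT (74.3 to 227 CPM), as were 8.99% of genes, with a log2 fold change of -0.92 (adjusted p = 0.531). The value of 227 CPM was that of mouse 7. Without WT mouse 7, 2.80% of genes passed between HepKO and WT, and 0 of the enzymes.

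Groups of KO and WT that did not overlap were found for Aldh1b1 and Acss2 in WDA males and for Adh4 and Aldh2 in Res females. Over all genes 16.3% did not overlap in WDA males and 26.2% in Res females. In WDA females and Res males it was 0 of 10 enzymes, against 8.81% and 4.64% of genes. Adh4 in Res females was 30.9, 52.5 and 32.3 CPM in WT and 26.3, 24.6 and 19.3 CPM in KO (log2 fold change -0.77, adjusted p = 0.149). Aldh1b1 in WDA males was 59.8, 64.7 and 65.7 CPM in WT and 84.2, 239 and 84.5 CPM in KO (1.12, adjusted p = 0.588). The KO value of 239 CPM was that of mouse 17.

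Aldh1b1 and Acss1 separated the 5 livers set apart from the other 22, and were higher in the 5 without overlap, as were 4.97% of 13534 genes. Aldh1b1 was 227 CPM in WT WDA females mouse 7, 239 in KO WDA males mouse 17, 162 in WT Res females mouse 13, 163 in WT Res males mouse 9 and 93.3 in KO Res males mouse 5, against 22.4 to 84.5 CPM in the other 22. Acss1 was 1.43 to 2.71 CPM in the 5 (27 to 58 counts) and 0.22 to 1.11 CPM in the others (4 to 19 counts). Neither gene was used to choose the 5 livers.

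Several of the other enzymes were low in some of these livers, most of all in mice 7 and 17, but overlapped between the 5 livers and the other 22. Over all 5, Aldh2 was 1133 to 1887 CPM, Adh5 160 to 260 CPM, Acss2 22.6 to 59.2 CPM and Cat 801 to 1903 CPM. Aldh2 was 1133 CPM in WT WDA females mouse 7 and 1184 CPM in KO WDA males mouse 17, the lowest of all 27 livers, where the other 22 had 1757 to 2674 CPM. In the same 2 livers Adh5 was 160 and 184 CPM (the other 22 had 221 to 374 CPM) and Acss2 was 22.6 and 26.0 CPM (38.7 to 89.7 CPM). Cat was lowest of all in mouse 7, at 801 CPM, and was 1312 CPM in mouse 17 (1476 to 2878 CPM in the other 22). WT Res females mouse 13 also lay below the other 22 for Aldh2 (1457 CPM), Adh5 (214 CPM) and Cat (1367 CPM). KO Res males mouse 5 lay below them for Aldh2 (1624 CPM). Adh1 was not separated over both stages together: it was 775 to 1176 CPM in the 5 livers and 596 to 1938 CPM in the others. Within WDA, mice 7 (1114 CPM) and 17 (1176 CPM) lay below every other liver on CPM with TMM scaling. The other WDA livers had 1416 to 1938 CPM in WT and KO and 1294 to 1499 CPM in HepKO. This order depended on the scaling, in which the TMM factors of mice 7 and 17 were 1.36 and 1.30. On deposited FPKM neither was the lowest for Adh1: the lowest WT or KO WDA liver, at 1190 FPKM, was outside the 5. Within Res, the livers set apart lay inside the range of the others, 596 to 1318 CPM. Without the 5 livers Aldh1b1 was 59.8 to 84.5 CPM in the 10 WDA livers and 22.4 to 52.5 CPM in the 9 Res livers of WT and KO mice, and Adh1 was 1416 to 1938 CPM and 596 to 1318 CPM. These 2 of the 10 enzymes were lower in Res without overlap, against 2.02% of all genes. The HepKO WDA livers are not part of this count, and their lowest Adh1, 1294 CPM, was below the highest Res liver, 1318 CPM.

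**Figure D4:**
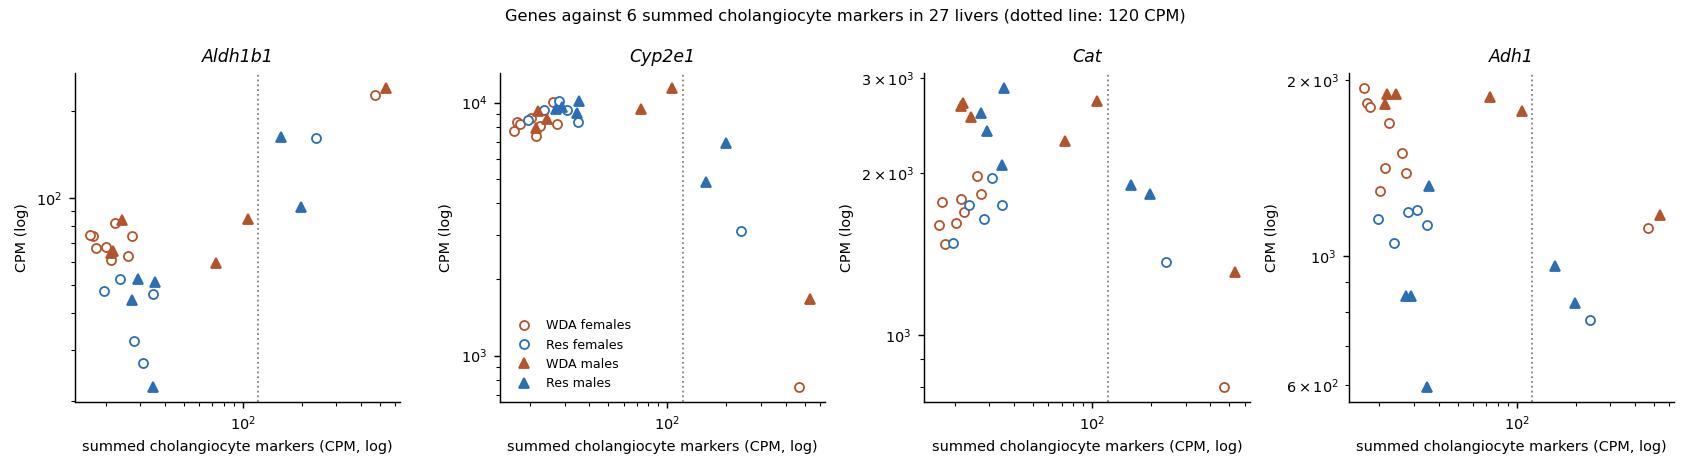
CPM of Aldh1b1, Cyp2e1, Cat and Adh1 against the sum of 6 cholangiocyte markers in each of the 27 livers, both on log axes; circles are females, triangles males, red WDA and blue Res, and the dotted line is 120 CPM. The 5 livers to the right of the line have the highest Aldh1b1, 93.3 to 239 CPM, and the lowest Cyp2e1, 754 to 6945 CPM.

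Other genes of alcohol oxidation were counted in lists that, like the 10 enzymes, were chosen with earlier results of these data known. In the averaged stage comparison, where 29.8% of all genes passed, 2 of the 5 other alcohol dehydrogenases and reductases tested passed, both lower in Res: Adhfe1, a hydroxyacid-oxoacid transhydrogenase (log2 fold change -0.36, adjusted p = 0.00589), and Akr1a1, an aldehyde reductase (-0.21, adjusted p = 0.0420). The call of Akr1a1 was lost in 19 of the 24 fits that left out 1 mouse. Of the 17 other aldehyde dehydrogenases and oxidases, 2 were higher and 3 lower. Aldh3a2, the fatty aldehyde dehydrogenase, fell (-0.68, adjusted p = 0.000458), and Aox1, aldehyde oxidase, rose (0.52, adjusted p = 0.00252).

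Of the 4 genes of microsomal ethanol oxidation, 2 were lower in Res: Cyb5a, cytochrome b5 (log2 fold change -0.51, adjusted p = 0.0135), and Cyb5r3, its reductase (-0.33, adjusted p = 0.0164). Cyp2e1, the ethanol-inducible cytochrome P450, did not pass (0.16, SE 0.31, adjusted p = 0.735). Outside the 5 livers its level was 7395 to 11400 CPM in the 10 WDA and 8348 to 10173 CPM in the 9 Res livers, and its log2 fold change without them was 0.10 (adjusted p = 0.312).

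Acat2 was the gene that passed of the 8 for acetate and acetyl-CoA (log2 fold change -0.25, adjusted p = 0.0157). Of the 10 peroxisomal genes 3 were lower, among them the oxidases Acox2 (-0.42, adjusted p = 0.000334) and Uox (-0.54, adjusted p = 0.0044). Of the 9 genes of the NADH shuttles 3 were lower, among them Mdh2, mitochondrial malate dehydrogenase (-0.38, adjusted p = 0.000291), and Slc25a11, the oxoglutarate carrier (-0.32, adjusted p = 0.0141). The shares in all these lists lay at or below 50%, on few genes each, beside 29.8% of all genes. The median log2 fold changes of the lists, in the order given, were -0.21, -0.13, -0.17, 0.00, -0.08 and -0.20, against 0.00 over all genes.

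Between the sexes, with 11.3% of all genes past the test, the counts higher in males were 1 of 5 for the other alcohol dehydrogenases, 4 of 17 for the other aldehyde dehydrogenases and 2 of 10 for the peroxisomal genes, with 0 lower. Of the acetate and acetyl-CoA genes 3 of 8 were lower in males, of the NADH shuttle genes 1 of 9 was lower, and of the microsomal genes 0 of 4 passed.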

How the data were processed

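Whole-liver RNA of 27 mice was sequenced, and groups were taken from the labels. Per the submitters' processing notes and the methods, reads were aligned with HISAT and Bowtie2 to GRCm38.p6. Versions, and the tool that made the values, are not given in the sources used here. The deposited tables give for each mouse and gene an expected count (estimated reads, not normalized, 7.34% to 8.09% of values not whole) and an FPKM value, which the authors scaled by length and library total. Counts were used for all tests and FPKM for levels between genes and for 1 alternative. Genes that a table does not list were set to 0 in it.

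Counts were rounded, filtered with filterByExpr (minimum count 10), scaled with TMM and tested with glmQLFit and glmQLFTest (edgeR 4.0.16, limma 3.58.1, R 4.3.3). Benjamini-Hochberg adjustment over all genes tested was used with a threshold of 0.05. Each single comparison used its own 2 groups, and averaged comparisons used contrasts of 8 groups in 1 fit of the 24 WT and KO mice. Confidence intervals are at 95%. The script was tested on simulated data. Alternatives were RLE scaling, library totals, no filter, DESeq2 1.42.0, FPKM with limma on log2(FPKM + 1), 1 spread shared by 9 groups and leaving out each mouse. Leaving out the 5 livers whose cholangiocyte markers summed to more than 120 CPM was chosen after seeing the data.

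The 10 enzymes and the gene lists were chosen with earlier results of these data known. Named genes are the 10 enzymes, the 2 genes of each list with the largest absolute fold change among those that passed in the averaged stage comparison, Cyp2e1, Kdm5b, and for each enzyme with a mean of at least 1 CPM the 3 genes with the highest Pearson correlation over the 27 livers. Dbp and Cyp2b13 were chosen after their values were seen. Promoter windows and coordinates are from RefSeq (GRCm38.p6).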

Additional observations from a re-analysis of the deposited data

Results flagged for a closer look

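For some enzymes every KO mouse, or every Res mouse, of 1 cohort lay above the mean of its WT or WDA mice, and every one of another cohort lay below, on the scale of log2(CPM + 0.5). The groups hold different mice, and most of them overlapped. The difference between the cohorts was not tested for these pairs. Between KO and WT in WDA, Adh7 differed by 0.388 in females and by -0.396 in males, Aldh1b1 by -0.717 in females and by 0.911 in males, and Acss2 by 0.209 in females and by -0.620 in males. The KO and WT groups overlapped for all of these in females, and for Adh7 in males. Of the 5 livers high in cholangiocyte markers, mouse 7 was in the WT group of these females and mouse 17 in the KO group of these males. With all mice, the edgeR log2 fold changes of Aldh1b1, Acss2 and Adh7 were -0.95, 0.10 and 0.40 in these females. In these males they were 1.12, -0.47 and -0.44. Without mouse 7 the values in females were -0.20, -0.19 and 0.27. Without mouse 17 the values in males were 0.42, -0.12 and -0.55. The cause of these shifts was not tested. Between Res and WDA in WT mice, Acss2 differed by 0.334 in females, where the groups overlapped, and by -0.459 in males, where they did not. The difference between the sexes averaged over KO and WT was tested for Acss2 and did not pass (log2 difference -0.39, adjusted p = 0.949, edgeR).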

How the results depend on the processing

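No paired analysis was possible because mouse numbers restart in each experiment and name different mice. In WT males the count of enzymes past the test in the stage comparison was 4, and 3 with RLE scaling, 3 with no filter, 2 with library totals, 2 with FPKM and limma, 1 with the spread shared by 9 groups and 1 to 4 without 1 mouse. In KO females it was 3, and 0 with the shared spread and 0 to 2 without 1 mouse. In the averaged stage comparison it was 1, and 4 without the 5 livers and 1 to 2 without 1 mouse, and between the sexes it was 3, and 4 with DESeq2, 5 without the 5 livers and 3 to 4 without 1 mouse. Directions of averaged comparisons turned in values that did not pass: with FPKM and limma, Aldh2 between stages (0.0047) and Aldh1b1 between sexes (-0.0018), and without the 5 livers Adh7 (0.087) and Cat (-0.0078) between stages and Acss1 between sexes (0.19). Without 1 mouse the ranges that crossed 0 were, between stages, Adh7 -0.14 to 0.058, Cat -0.020 to 0.092 and Acss2 -0.14 to 0.0024, and between sexes Acss1 -0.25 to 0.34 and Aldh1b1 -0.092 to 0.39. In WT males the stage difference of Aldh1b1 (0.48) ran from -0.37 to 0.80, and passed as lower without mouse 9 (adjusted p = 0.0466, edgeR). The causes were not tested. Library totals placed the median log2 fold change of all genes in WT males at 0.155 in place of 0.024, and between the sexes at -0.106 in place of 0.002.

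Over all genes, the stage comparison called 1361 genes in WT males, 636 with FPKM and limma, 814 with library totals, 308 with the shared spread and 106 to 1685 without 1 mouse. In KO females it called 2550, 1558 with the shared spread and 1026 to 2292 without 1 mouse. In WT females it called 0, 347 with DESeq2, 840 with the shared spread and up to 15 without 1 mouse, and in KO males 0, 79, 102 and up to 10. Between the sexes it called 1526, and 2639 without the 5 livers. Where edgeR called 0 genes between KO and WT in Res females, DESeq2 called 592, the shared spread gave 670 and leaving out WT mouse 1 gave 852. HepKO against WT gave 0, 204 with DESeq2, 49 with the shared spread and 349 without WT mouse 7. The averaged KO difference in Res gave 10 genes and 115 with DESeq2, HepKO against KO 2 and 40, and the stage by sex difference 16, 99 with DESeq2 and 187 without the 5 livers. In each comparison between vectors, 0 enzymes passed under every alternative run. Library totals moved the median of all genes between KO and WT to -0.130 in WDA females, 0.209 in WDA males and -0.186 in Res females, and to -0.175 for HepKO against WT. The depth limits Acss1, which was tested in 13 of 16 comparisons on 4 to 58 counts a liver, and Adh7.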

Other observations

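The genes whose log2 CPM followed each enzyme most closely over the 27 livers are given as a description. The livers differ in experiment, stage and sex, all of which can enter these correlations. The 5 livers high in cholangiocyte markers lie far from the rest for many genes, so the correlation over the other 22 livers is given too. Adh1 was most like Copz1 (Pearson's r 0.90, and 0.89 over 22 livers), Rab5c and Txn2. Adh4 was most like Irf2 (0.94 and 0.94), Ulk2 and Gfm2, Aldh1a1 was most like Zfp982 (0.88 and 0.89), Marchf8 and Nudt7, and Cat was most like Marchf8 (0.94 and 0.92), Sult2a8 and Acsl1. Marchf8 stood in the lists of both Aldh1a1 and Cat. Acss2 was most like Dmgdh (0.94 and 0.93), Upb1 and Dcaf11. Adh5 was most like Urah (0.95 and 0.91), Ndufb3 and Car5a, and Aldh2 was most like F7 (0.94 and 0.83), Macrod1 and Apoa2. Aldh1b1 was most like Rap1gap, with r falling from 0.91 to 0.72 without the 5 livers, Coq8b and Gstm3. Adh7, on few counts, had no correlation above that with Gsr (0.66 and 0.58), followed by Lrrc61 and Tmem243.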
